A study of Mus musculus with 12 samples.

Results

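The 10 genes described here are expressed in the 2-cell-like state of mouse embryonic stem cells (ESCs). They are 4 copies of Zscan4 (Zscan4a, Zscan4c, Zscan4d and Zscan4f), 2 copies of Usp17l (Usp17la and Usp17lc), Tcstv1, Tcstv3, Zfp352 and Gm21761, out of 52636 genes in the deposited count tables. They were chosen by name, with the difference between knockdown and wild-type ESCs in view, and each was found through its gene identifier. Their ESC values are therefore given as a description with no test, and the same holds for every comparison that uses those ESC libraries. Tests are given for genes outside the 10 and for the members in embryoid bodies. Embryoid body values were not used in the choice, but members and gene lists were chosen with earlier results of these data known.

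A small fraction of cells in an ESC culture passes for a time through a state that resembles the 2-cell embryo. In these cells the transcription factor Dux and its partners switch on genes that are otherwise silent, among them the Zscan4 cluster and transcripts of the MERVL retrotransposon. Zscan4 proteins bind DNA through zinc fingers, carry a SCAN domain, and are known for telomere lengthening and genome stability in mouse ESCs.

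The cells were E14, a mouse ESC line, grown per the labels on gelatin with LIF, the MEK inhibitor PD0325901 and the GSK3 inhibitor CHIR99021. The groups were knockdown (KD) ESCs, wild-type (WT) ESCs, KD embryoid bodies (EBs) and WT EBs, with 3 libraries each that the series calls biological replicates. EBs are aggregates in which ESCs differentiate, and they were sampled at day 6. KD cells carried an shRNA against circKat6b-e2, a circular RNA of the Kat6b gene. A control shRNA in the WT cells is not mentioned, nor is the number of KD clones, and any effect of either cannot be told apart from the knockdown. Poly-T beads select RNA with a poly-A tail, and no circular RNA was matched in the tables, so the knockdown itself was not checked here.

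Total counts lay between 25.4 and 37.8 M per library, and 20021 to 23548 genes had at least 1 count. The pluripotency markers Pou5f1, Sox2, Nanog, Zfp42, Esrrb, Klf4, Tfcp2l1 and Tbx3 summed to 3470 to 3569 CPM (counts per M of the library's scaled total) in KD ESCs and 2708 to 3236 CPM in WT ESCs. They summed to 629 to 653 CPM in KD EBs and 423 to 431 CPM in WT EBs. Each mate of a read pair appears to have been counted on its own, since 61.7% to 68.7% of counts from 1 to 10 were even, against 48.0% to 51.6% of those over 100 and up to 1000. Of the members' 120 values 32 were 0, and 60 of the 88 others (68.2%) were even, so a count of 2 can be 1 fragment.

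The Zscan4 copies are close to identical, which limits how their reads can be assigned. In GENCODE M21 annotation of GRCm38 the longest transcripts of Zscan4a and Zscan4c shared 97.9% of aligned positions, and those of Zscan4c and Zscan4d 97.1%. Of all 150-base stretches of the longest transcript, 86.2% in Zscan4f, 61.0% in Zscan4c, 25.1% in Zscan4a and 13.0% in Zscan4d also occurred in a transcript of another gene. The share was 29.4% in Usp17lc, 28.4% in Gm21761, all of it in Gm20767, and 1.28% in Usp17la, while Tcstv1, Tcstv3 and Zfp352 had none. The treatment of reads with several matches is not stated in the sources used here. The split between Zscan4 copies is therefore uncertain, and their sum is given as well.

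**Figure D1:**
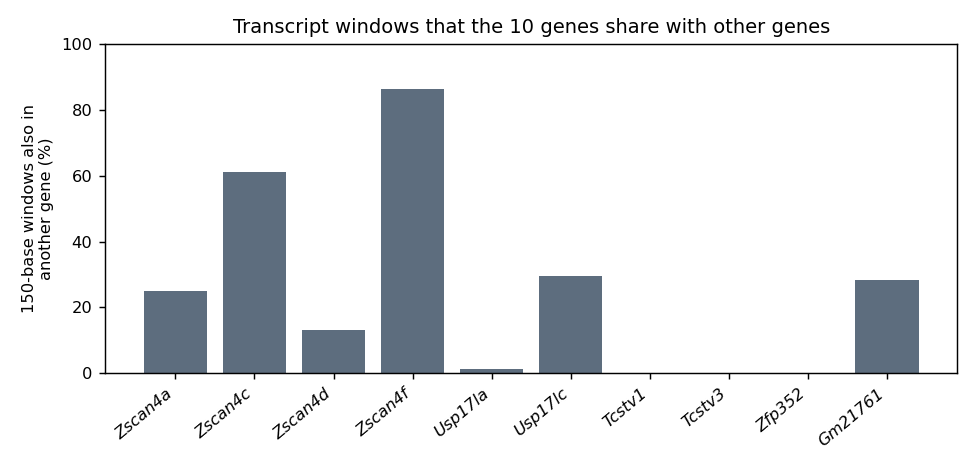
Bars from 0 give the percent of all 150-base stretches of each member's longest GENCODE M21 transcript that occur exactly in a transcript of another gene (vertical axis), for the 10 members (horizontal axis). The bar is highest for Zscan4f at 86.2%, and Tcstv1, Tcstv3 and Zfp352 have none.

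The likeness extends to the promoters, and the stretch below is shown because it holds a run of letters that members from 2 chromosomes share. RefSeq promoter windows of GRCm38.p6, which span the start and lie mostly upstream of it, were at hand for 7 of the 10 members. The run TGATTCAA lies in 4 of the 7, those of Zscan4c, Zscan4d, Zscan4f and Gm21761, and is set in capitals here within 90 bases of each gene's own strand, 5′ to 3′. The positions are chr7:11005521-11005610 (plus strand) for Zscan4c, chr7:11166294-11166383 (minus strand) for Zscan4d, chr7:11397714-11397803 (plus strand) for Zscan4f and chr13:119913598-119913687 (minus strand) for Gm21761.
Zscan4c: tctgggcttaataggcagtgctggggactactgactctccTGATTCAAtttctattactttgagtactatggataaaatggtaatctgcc
Zscan4d: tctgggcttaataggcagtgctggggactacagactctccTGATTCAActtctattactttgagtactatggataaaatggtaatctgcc
Zscan4f: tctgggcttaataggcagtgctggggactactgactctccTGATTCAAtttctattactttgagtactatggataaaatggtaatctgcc
Gm21761: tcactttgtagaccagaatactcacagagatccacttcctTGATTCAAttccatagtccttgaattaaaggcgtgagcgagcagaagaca

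The Zscan4c and Zscan4f stretches were identical, and Zscan4d differed from each of them at 2 of 90 positions. Outside the run the Gm21761 stretch resembled none of them: its whole promoter window matched that of Zscan4c at 51.4% of aligned positions, against 90.4% between Zscan4c and Zscan4d. The run began 184, 195, 161 and 179 bases before the start in Zscan4c, Zscan4d, Zscan4f and Gm21761. A second run of 8 bases, ATTTAATC, was shared by the same 4 windows and began 95, 106, 72 and 124 bases before the start in the same order of genes, and no run of 9 bases was shared by all 4. The runs were picked after these promoters had been read, so their presence in them is no test. Searched on both strands, TGATTCAA occurred in 191 of 32851 promoter windows (0.581%) and ATTTAATC in 223 (0.679%). These shares are for fixed letters, and how often unrelated windows share any run of 8 bases was not counted. The letters of neither run overlap those of the other in these genes. Of 22 other 2-cell-like genes with a window, AF067061 held both runs, at the same distances from its start as in Gm21761. Pramel6 held TGATTCAA, and Zscan4b held ATTTAATC.

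In ESCs the 4 Zscan4 copies together stood at 0.782 ± 0.420 CPM in KD cells and 5.59 ± 0.554 CPM in WT cells (SD, n = 3 each), 7.14-fold higher in WT. Their summed raw counts were 8, 32 and 30 in KD ESC replicates 1 to 3, against 226, 136 and 171 in WT ESC replicates 1 to 3. Every KD library was below every WT library, by a wide gap. With all 9 annotated Zscan4 copies the sum was 1.21 ± 0.631 CPM in KD ESCs and 7.82 ± 0.367 CPM in WT ESCs. In bulk RNA, fewer cells in the 2-cell-like state and less of these transcripts per cell cannot be told apart.

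Zscan4c (ENSMUSG00000054272, chr7:11005745-11010547, plus strand, GRCm38), the copy best known from ESC cultures, had 2, 6 and 6 counts in KD ESCs and 82, 53 and 50 in WT ESCs. Its log2 fold change, KD over WT, was -3.57 (SE 0.53). Zscan4d (ENSMUSG00000090714, chr7:11161374-11166159, minus strand), the copy known from 2-cell embryos, had 6, 4 and 18 counts in KD ESCs and 75, 46 and 56 in WT ESCs, a log2 fold change of -2.54 (SE 0.55). Both copies were lower in every KD library than in any WT library.

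Zscan4a (ENSMUSG00000110097, chr7:10794242-10799057, minus strand) is annotated as an unprocessed pseudogene in GENCODE M21. It had 0, 14 and 4 counts in KD ESCs and 56, 31 and 56 in WT ESCs, a log2 fold change of -2.86 (SE 0.82), or -4.40 without KD ESC replicate 2. Zscan4f (ENSMUSG00000070828, chr7:11397915-11402318, plus strand) had 0, 8 and 2 counts in KD ESCs and 13, 6 and 9 in WT ESCs. For Zscan4a the groups were separate, whereas for Zscan4f, which shares most of its sequence with other copies, they overlapped and counts were too low for the test's filter.

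Gm21761 (ENSMUSG00000096175, chr13:119912095-119929272, minus strand) had the most counts of the 10. It had 34, 29 and 45 in KD ESCs and 331, 344 and 249 in WT ESCs, or 1.24 ± 0.220 CPM in KD ESCs and 9.92 ± 2.25 CPM in WT ESCs (SD, n = 3 each). The groups lay far apart, at a log2 fold change of -3.00 (SE 0.25), the smallest error among the members. It overlaps Gm21181 on the same strand and shares sequence with Gm20767, so part of its reads could belong to either.

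Tcstv1 and Tcstv3 belong to a family named for its variable expression at the 2-cell stage. Tcstv3 (ENSMUSG00000095821, chr13:120316878-120318178, plus strand) had 4, 0 and 1 counts in KD ESCs and 23, 23 and 21 in WT ESCs, a log2 fold change of -3.53 (SE 0.93), or -5.15 without KD ESC replicate 1. Its groups were separate, and the WT libraries agreed closely. Tcstv1 (ENSMUSG00000096284, chr13:119893388-119894785, minus strand) had 1 count in all, in WT ESC replicate 2, and says nothing about either group.

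The Usp17l genes encode deubiquitinating enzymes, and both lie on chromosome 7 far from the Zscan4 cluster. Usp17la (ENSMUSG00000054568, chr7:104857009-104862667, plus strand) had 4, 0 and 8 counts in KD ESCs and 46, 0 and 11 in WT ESCs. Usp17lc (ENSMUSG00000058976, chr7:103415072-103419880, plus strand, overlapping Gm25774) had 4, 0 and 0 counts in KD ESCs and 20, 4 and 13 in WT ESCs. In CPM the groups overlapped for both, and WT ESC replicate 2, with 0 and 4 counts, was as low as KD libraries.

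Zfp352 (ENSMUSG00000070902, chr4:90218820-90225702, plus strand), a zinc finger gene of the early embryo, had 2, 0 and 0 counts in KD ESCs and 18, 4 and 4 in WT ESCs. Every KD library was below every WT library, but 2 of the 3 WT libraries had 4 counts. In all, 6 of the 10 members (Zscan4a, Zscan4c, Zscan4d, Tcstv3, Zfp352 and Gm21761) were lower in each KD ESC library than in each WT ESC library. Among all 16081 genes tested in ESCs 15.4% had this pattern and 0.603% were called in either direction. These figures come from the contrast that was in view when the members were chosen. Only 5 members, those with a fold change above, passed the filter on low counts in ESCs, so Zfp352 is outside the genes behind the 15.4%. Genes that pass the filter through the WT libraries alone had to differ.

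**Figure D2:**
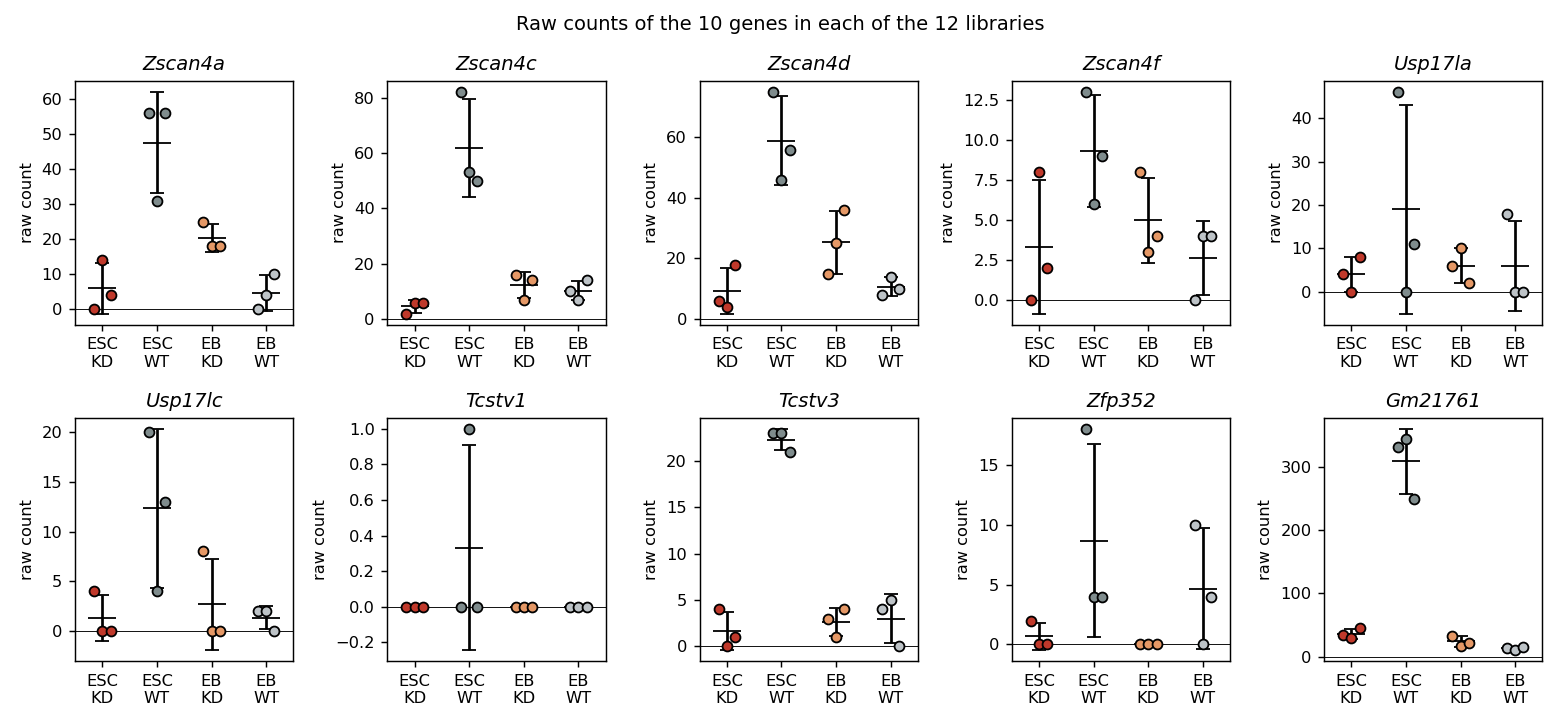
Raw counts (vertical axis, linear, own scale in each panel) of the 10 members in the 12 libraries, by group (horizontal axis); points are libraries, and lines give the mean and SD of 3. WT ESC points stand highest for Zscan4c, Zscan4d, Tcstv3 and Gm21761, and all EB points are below the WT ESC points of these 4 genes.

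Levels between members were compared as CPM per kilobase of exon. In WT ESCs Gm21761 led at 7.22 ± 1.64 CPM per kb, followed by Tcstv3 at 0.925 ± 0.148, Zscan4c at 0.850 ± 0.100, Zscan4d at 0.817 ± 0.071 and Zscan4a at 0.661 ± 0.173 (SD, n = 3). The last 4 did not differ beyond their spread from their neighbours in this order, while Gm21761 stood well above them. Usp17la at 0.199 ± 0.234, Usp17lc at 0.152 ± 0.082, Zscan4f at 0.148 ± 0.033 and Zfp352 at 0.111 ± 0.085 CPM per kb again did not differ beyond their spread.

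In KD ESCs Gm21761 also led, at 0.900 ± 0.160 CPM per kb, with Zscan4d next at 0.137 ± 0.100 and Zscan4a at 0.089 ± 0.109. In KD EBs the order began with Gm21761 at 0.546 ± 0.177, Zscan4d at 0.349 ± 0.139 and Zscan4a at 0.280 ± 0.053 CPM per kb. In WT EBs it began with Gm21761 at 0.288 ± 0.050, Zscan4d at 0.145 ± 0.047 and Zscan4c at 0.138 ± 0.039 CPM per kb. Gm21761 thus led in all 4 groups, and only in KD EBs did its range of mean ± SD meet that of the next member, Zscan4d.

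In EBs the direction was the opposite for part of the set. The 4 Zscan4 copies together stood at 1.97 ± 0.225 CPM in KD EBs and 0.863 ± 0.274 CPM in WT EBs (SD, n = 3 each), a 2.28-fold higher sum in KD. The summed raw counts were 64, 53 and 72 in KD EBs against 18, 29 and 38 in WT EBs, with no overlap. Over all 9 annotated copies the sum was 3.85 ± 0.463 CPM in KD EBs and 1.37 ± 0.455 CPM in WT EBs.

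Zscan4a had 25, 18 and 18 counts in KD EBs and 0, 4 and 10 in WT EBs. It passed edgeR's quasi-likelihood test at a log2 fold change of 2.14 (SE 0.70, adjusted p = 0.00995), but it entered that test through the KD libraries, the only ones over the filter. With no filter the edgeR adjusted p was 0.0113. The call was lost without KD EB replicate 1 or WT EB replicate 1 (edgeR adjusted p up to 0.0542) and in a fit of all 12 libraries (0.0731), and the fold change was 3.24 without WT EB replicate 3.

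Zscan4d had 15, 25 and 36 counts in KD EBs and 8, 14 and 10 in WT EBs. It passed the same edgeR test at a log2 fold change of 1.26 (SE 0.53, adjusted p = 0.0447). All 3 KD libraries and 1 WT library were over the filter, and with no filter the edgeR adjusted p was 0.0753. The call was also lost by DESeq2, in a fit of all 12 libraries, and in 4 of 6 fits that left out 1 library (without KD EB replicate 2 or 3, or WT EB replicate 1 or 3), with an edgeR adjusted p of up to 0.236.

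Zscan4c, in contrast, had 16, 7 and 14 counts in KD EBs and 10, 7 and 14 in WT EBs. Its log2 fold change was 0.29 (SE 0.61, edgeR adjusted p = 0.715), and the groups overlapped. Zscan4f had 8, 3 and 4 counts in KD EBs and 0, 4 and 4 in WT EBs, also overlapping. Reads of these copies can stand for one another, so a difference between copies was not shown.

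Gm21761 had 33, 17 and 22 counts in KD EBs and 13, 10 and 16 in WT EBs. All KD values lay above the WT values, yet the log2 fold change of 0.91 (SE 0.51) did not pass the edgeR test at an adjusted p of 0.130. In a fit of all 12 libraries it did, at 0.0405. The remaining members had too few counts in EBs for the filter, with the highest value, 18, in 1 WT library of Usp17la. Usp17la had 6, 10 and 2 counts in KD EBs and 18, 0 and 0 in WT EBs, and Usp17lc had 8, 0 and 0 in KD EBs and 2, 2 and 0 in WT EBs.

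Tcstv3 had 3, 1 and 4 counts in KD EBs and 4, 5 and 0 in WT EBs. Zfp352 had none in KD EBs and 10, 0 and 4 in WT EBs, and Tcstv1 had none in either. For these 3 genes no difference was detectable at this depth. Of the 10 members, 4 passed the filter in EBs and 2 of them were called higher, both of them genes that passed it through the KD libraries. Of all genes tested in EBs 55.7% were called, 28.0% as higher and 27.7% as lower. Without overlap and higher in KD were 3 of the 4 members tested (Zscan4a, Zscan4d and Gm21761), against 30.7% of all genes tested. The first 2 of them passed the filter through the KD libraries, and 4 genes are too few to compare the shares.

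**Figure D3:**
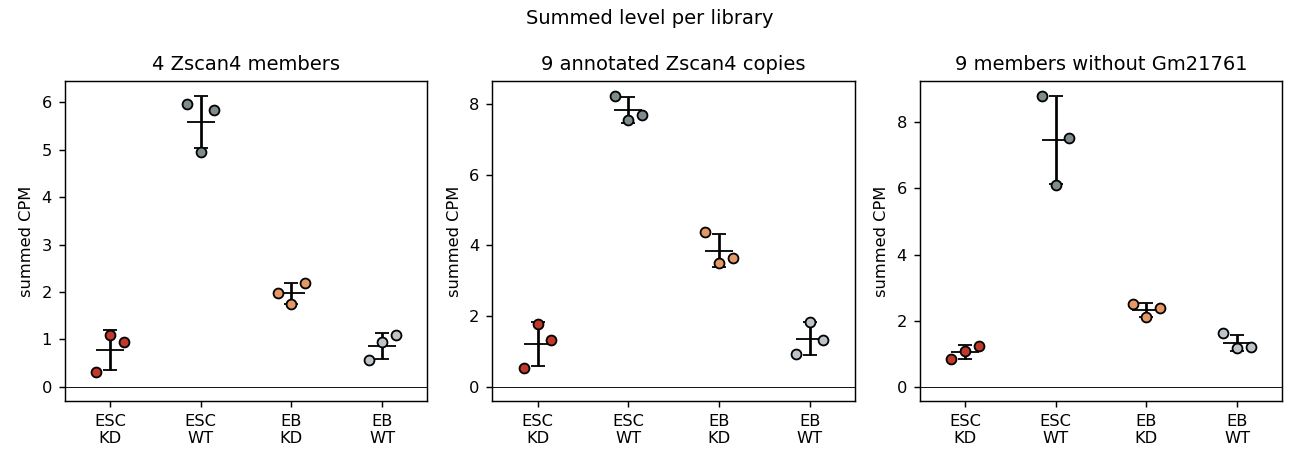
Summed CPM (vertical axis, linear) of the 4 Zscan4 members, the 9 annotated Zscan4 copies and the 9 members without Gm21761 in the 4 groups (horizontal axis); points are libraries, and lines give the mean and SD of 3. KD is below WT in ESCs and above WT in EBs for each sum.

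Markers of other cell types also differed between EB groups. Primitive endoderm markers (Gata4, Gata6, Sox7, Sox17, Pdgfra and Dab2) summed to 1024 to 1063 CPM in KD EBs and 660 to 669 CPM in WT EBs, with Gata4 alone lower in KD at 207 CPM, against 224 CPM in WT EBs. The sum of the pluripotency markers was higher in KD EBs too, in the ranges given above. Nanog alone was lower in KD, at 52.1 CPM in KD EBs and 55.6 CPM in WT EBs. In ESCs the primitive endoderm sum was 1.75 to 2.26 CPM in KD cells and 1.20 to 3.59 CPM in WT cells. Germ cell markers (Ddx4, Dazl, Mael, Sycp3 and Stra8) summed to 19.5 to 21.3 CPM in KD ESCs and 28.5 to 33.1 CPM in WT ESCs. Stra8 had the largest gap, at 9.64 CPM in KD ESCs and 16.9 CPM in WT ESCs. In EBs the germ cell sum was 7.11 to 8.15 CPM in KD and 6.54 to 7.07 CPM in WT, with Sycp3 and Stra8 lower in KD. Trophoblast markers (Cdx2, Elf5, Gata3, Eomes and Krt8) summed to 22.8 to 24.6 CPM in KD ESCs and 25.0 to 30.6 CPM in WT ESCs, with Elf5 at 0 in KD. They summed to 1338 to 1402 CPM in KD EBs and 1736 to 1811 CPM in WT EBs. Nearly all of that sum was Krt8, at 1266 CPM in KD EBs and 1698 CPM in WT EBs. Gata3 was also lower in KD, at 10.7 CPM in KD EBs and 17.1 CPM in WT EBs. Cdx2, at 65.5 CPM in KD EBs and 32.5 CPM in WT EBs, Eomes and Elf5 were higher in KD. Fibroblast markers (Col1a1, Col1a2, Thy1, Lum and Dcn) summed to 20.2 to 24.6 CPM in KD ESCs and 23.1 to 31.7 CPM in WT ESCs, with Lum and Dcn at 0 in KD. They summed to 535 to 552 CPM in KD EBs and 451 to 464 CPM in WT EBs. Col1a2, Lum and Dcn were higher in KD EBs, whereas Thy1, at 3.96 CPM in KD EBs and 16.6 CPM in WT EBs, and Col1a1 were lower. The part of these shifts in the members' values was not tested.

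Levels in EBs and ESCs were set side by side in a fit of all 12 libraries, for WT and KD cells apart. In WT cells Gm21761 stood at 0.332 ± 0.0587 CPM in EBs and 11.6 ± 2.65 CPM in ESCs (SD, n = 3 each), a log2 fold change, EB over ESC, of -5.11 (SE 0.33). In KD cells it stood at 0.654 ± 0.208 CPM in EBs and 1.44 ± 0.257 CPM in ESCs, a log2 fold change of -1.13 (SE 0.31). EBs were lower in both populations, and whether the gaps differed was not tested, since the ESC libraries had been in view.

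For Zscan4a the log2 fold change, EB over ESC, was -3.86 (SE 0.91) in WT cells and 1.21 (SE 0.88) in KD cells. For Zscan4c it was -3.09 (SE 0.51) in WT cells and 0.84 (SE 0.57) in KD cells, and for Zscan4d -2.97 (SE 0.55) in WT cells and 0.91 (SE 0.55) in KD cells. In KD cells these 3 differences were under 2 SE from 0, and for Zscan4a the value was 0.60 without KD ESC replicate 1 and 2.71 without KD ESC replicate 2. Without KD ESC replicate 1 that of Zscan4c was 0.47, and that of Zscan4d was 0.50 without KD ESC replicate 2 and 1.63 without KD ESC replicate 3. For Tcstv3 it was -3.36 (SE 0.95) in WT cells and 0.08 (SE 1.14) in KD cells, and for Usp17la -2.01 (SE 1.39) in WT cells and 0.06 (SE 1.53) in KD cells. The Usp17la value in WT cells rests on single libraries, and was -0.52 without WT ESC replicate 1. Without WT EB replicate 1 the remaining WT EB counts were all 0, so a fitted fold change is no value.

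These are read against a median of 0.17 over all 18975 genes tested in WT cells and 0.15 in KD cells. Of all genes 79.8% were called in WT cells and 79.8% in KD cells. With total counts alone as the scale those medians were 0.70 and 0.52. The comparisons between stages and between KD and WT share libraries, so they are not separate lines of evidence.

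**Figure D4:**
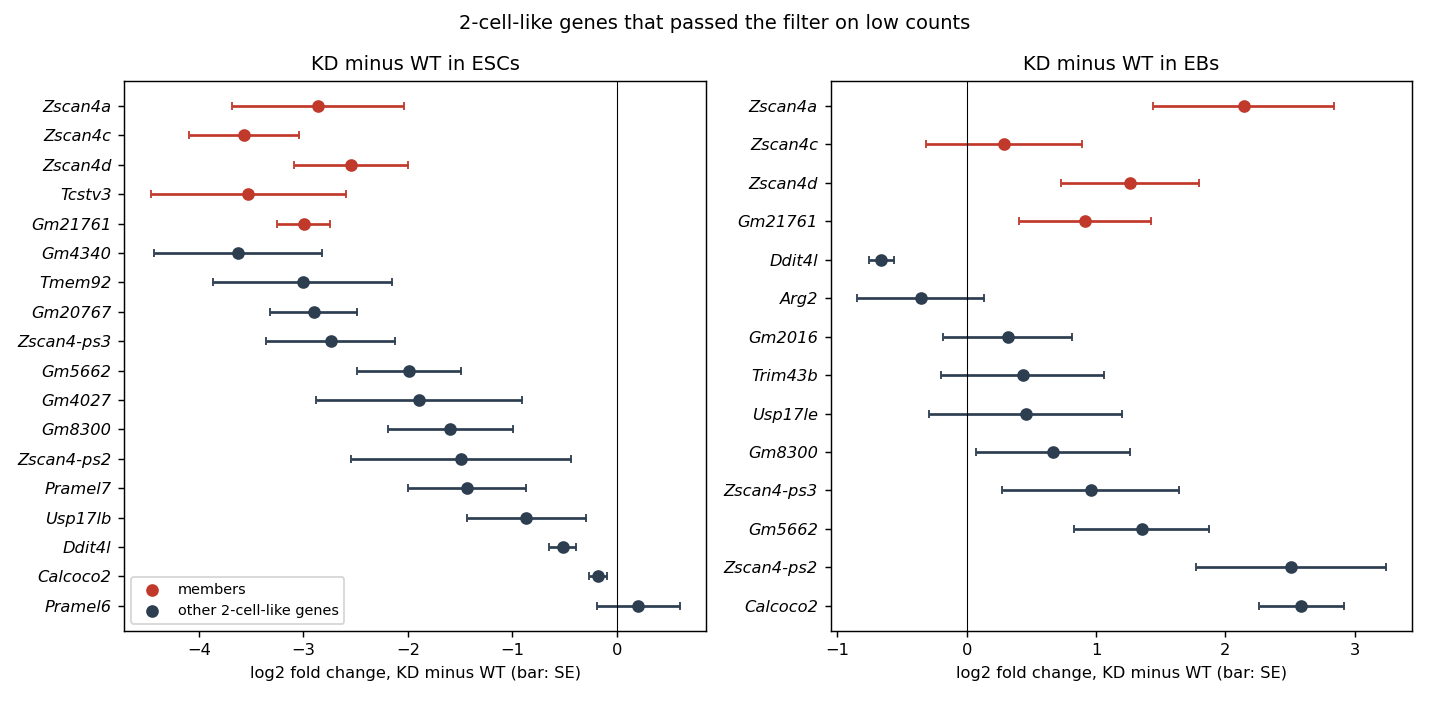
Log2 fold change, KD over WT, with SE as bars (horizontal axis), in ESCs (left) and EBs (right), for members and other 2-cell-like genes that passed the filter in each stage (rows; Arg2 is left out in ESCs). In ESCs the 5 members shown lie below -2 as a description, and in EBs Zscan4a at 2.14 is the highest member.

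Other genes known from the 2-cell-like state were listed, 48 in number, of which 47 were in the tables and 8 had no count. Of these, 14 were tested in ESCs, and 1 fell and none rose, against 0.435% and 0.168% of all genes tested. Their median log2 fold change was -1.74, against 0.01 over all genes, given as a description. Genes of the list that passed the filter through the WT libraries alone, such as Arg2 and Gm4340, had to lie below 0. In the edgeR test 9 had an unadjusted p under 0.05. The share over all genes was not counted, so that number is not read as a result. Gm20767 was the 1 gene called. It had 27, 8 and 16 counts in KD ESCs and 189, 130 and 108 in WT ESCs, a log2 fold change of -2.90 (SE 0.42, edgeR adjusted p = 0.0196). That call was lost without KD ESC replicate 2 or 3, or WT ESC replicate 1 (edgeR adjusted p up to 0.166), and its sequence overlaps with that of Gm21761.

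The other tested genes of that list did not pass the edgeR test in ESCs. Arg2, the mitochondrial arginase, had 0 counts in the 3 KD ESC libraries and 17, 22 and 15 in WT ESCs, at least 16.6-fold lower in KD with 3 counts over the group as the floor. Gm4340 had 0, 2 and 6 counts in KD ESCs and 48, 28 and 34 in WT ESCs (edgeR adjusted p = 0.0690). Zscan4-ps3, a further Zscan4 copy, had 4, 4 and 6 counts in KD ESCs and 51, 34 and 20 in WT ESCs (edgeR adjusted p = 0.0708). Duxf3, the Dux gene of this annotation, had 3 counts over all 12 libraries, too few to compare.

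In EBs 10 genes of the same list were tested, of which 3 rose and 1 fell, 4 of 10 against 55.7% of all genes tested. Calcoco2, an autophagy receptor, had 171, 112 and 126 counts in KD EBs and 13, 15 and 42 in WT EBs, a log2 fold change of 2.59 (SE 0.33, edgeR adjusted p = 1.07e-07). Zscan4-ps2, another further Zscan4 copy, had 21, 24 and 12 counts in KD EBs and 0, 6 and 4 in WT EBs, a log2 fold change of 2.51 (SE 0.74, edgeR adjusted p = 0.00452), a call that a fit of all 12 libraries lost at 0.0737. KD and WT libraries were separate for both genes.

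Gm5662 had 24, 43 and 37 counts in KD EBs and 8, 26 and 7 in WT EBs, a log2 fold change of 1.35 (SE 0.52, edgeR adjusted p = 0.0278). Its groups overlapped, and the call was lost in 4 of 6 fits that left out 1 library (without KD EB replicate 2 or 3, or WT EB replicate 1 or 3). Ddit4l, an inhibitor of mTOR signalling, stood at 13.5 ± 0.952 CPM in KD EBs and 21.3 ± 1.83 CPM in WT EBs (edgeR adjusted p = 9.93e-07, n = 3 each). The median log2 fold change of the 10 tested genes was 0.56, against 0.00 over all genes. Here a gene that passed the filter through the KD libraries alone had to lie above 0.

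The known activators of the state, Dppa2, Dppa4, Dppa3, Nelfa, Trp53 and Smarca5, were tested in both stages. Dppa2 and Dppa4 act as a pair of DNA-binding proteins upstream of Dux, and Dppa3 is a maternal factor of the early embryo. In ESCs none of the 6 passed the edgeR test. An unadjusted p under 0.05 was found for 3, again without a counted share over all genes, and is not read as a result. Dppa3 had 66, 104 and 100 counts in KD ESCs and 161, 120 and 149 in WT ESCs (log2 fold change -0.57, SE 0.24, edgeR adjusted p = 0.201). Dppa2 had 1424, 1328 and 1702 counts in KD ESCs and 2007, 1268 and 1369 in WT ESCs, which overlapped (edgeR adjusted p = 0.716). Dppa4 stood higher in KD ESCs at a log2 fold change of 0.33 (SE 0.08), short of the threshold at an edgeR adjusted p of 0.0763.

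In EBs 5 of the 6 rose and 1 fell, against 28.0% and 27.7% of all genes tested. Dppa2 had 273, 291 and 379 counts in KD EBs and 57, 20 and 20 in WT EBs, a log2 fold change of 3.30 (SE 0.34, edgeR adjusted p = 3.71e-06). Dppa3 had 221, 197 and 239 counts in KD EBs and 26, 14 and 45 in WT EBs, a log2 fold change of 2.99 (SE 0.26, edgeR adjusted p = 4.99e-11). Dppa4 had 513, 425 and 479 counts in KD EBs and 189, 136 and 180 in WT EBs, a log2 fold change of 1.52 (SE 0.14, edgeR adjusted p = 4.96e-11). For these 3 genes every KD library was far above every WT library.

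The other activators moved less. Trp53, which encodes p53, had a log2 fold change of 0.46 (SE 0.04) and Smarca5, a chromatin remodeller, one of 0.33 (SE 0.04). Nelfa, a subunit of the negative elongation factor, fell at a log2 fold change of -0.39 (SE 0.05). All 6 kept an edgeR adjusted p under 0.05 without any 1 EB library.

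**Figure D5:**
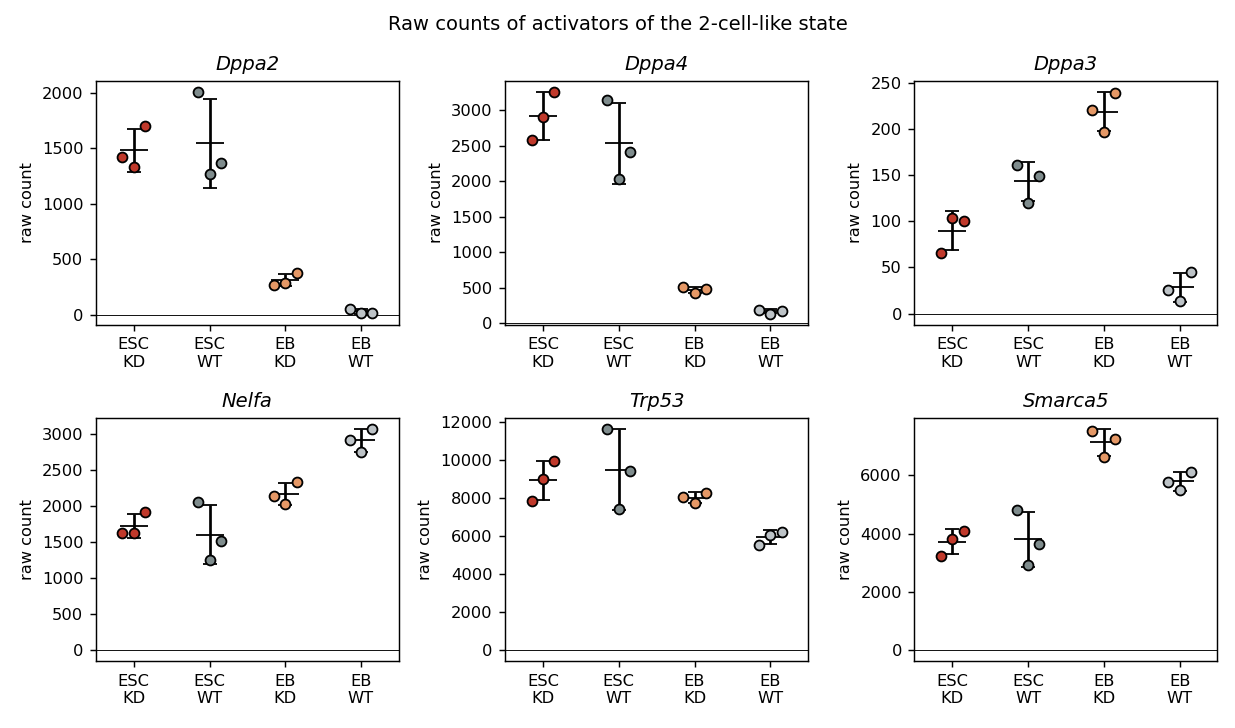
Raw counts (vertical axis, linear, own scale in each panel) of the 6 activators in the 12 libraries, by group (horizontal axis); points are libraries, and lines give the mean and SD of 3. Dppa2 counts overlap between KD and WT ESCs, and KD is far above WT in EBs for Dppa2, Dppa3 and Dppa4.

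Repressors of the state include the chromatin factors Trim28, Setdb1, Kdm1a, Ehmt1, Ehmt2 and the non-canonical Polycomb complex with Mga, Max, E2f6, Pcgf6 and Rybp. Of 32 such genes none was called in ESCs. In the edgeR test 9 had an unadjusted p under 0.05, which is not read as a result, since the share over all genes was not counted. In EBs 12 rose and 7 fell, 19 of 32, a share close to the 55.7% of all genes tested that were called, with a median log2 fold change of -0.02. The 6 that rose with the smallest p were Trim28 at 0.47 (SE 0.03), Ncl at 0.34 (SE 0.03), E2f6 at 0.48 (SE 0.05), Setdb1 at 0.24 (SE 0.04), Ehmt2 at 0.22 (SE 0.04) and Mga at 0.27 (SE 0.04). Trim28 recruits Setdb1 to retrotransposons, and Ncl, nucleolin, works with it at the Dux locus. Those that fell included Lin28a at -0.55 (SE 0.03), Kdm1a at -0.34 (SE 0.03), Ehmt1 at -0.17 (SE 0.04), Dnmt1 at -0.12 (SE 0.03) and Smchd1 at -0.10 (SE 0.04). The call of Smchd1 was lost in 4 of 6 fits without 1 library, while the other 10 named here held in each of those fits. In a fit of all 12 libraries Ehmt1 and Dnmt1 were no longer called.

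Of 13 telomere and recombination genes 12 were tested in each stage, 11 of them in both, and none was called in ESCs. In EBs 2 rose and 5 fell, 7 of 12, a share close to the 55.7% of all genes tested that were called. Dmc1, the meiotic recombinase, had 152, 187 and 166 counts in KD EBs and 461, 467 and 446 in WT EBs, and fell at a log2 fold change of -1.41 (SE 0.14, edgeR adjusted p = 3.47e-10). Tert, the catalytic subunit of telomerase, had 478, 482 and 473 counts in KD EBs and 872, 768 and 921 in WT EBs, and fell at -0.80 (SE 0.09, edgeR adjusted p = 4.04e-09). Both were separate between groups.

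The shelterin genes Tinf2 and Pot1a fell at log2 fold changes of -0.39 (SE 0.05) and -0.28 (SE 0.06). Smc1b, a meiotic cohesin subunit, rose at 1.24 (SE 0.38, edgeR adjusted p = 0.00655), a call that was lost without KD EB replicate 3. Terf2, which protects telomere ends, rose at 0.15 (SE 0.06, edgeR adjusted p = 0.0328), and that call was lost in 4 of 6 fits without 1 library.

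Genes within 500 kb of a member numbered 281, of which 198 had no count. In ESCs 20 were tested and only Gm20767, described above, was called. Gm21818 on chromosome 13 had 7, 11 and 10 counts in KD ESCs and 67, 39 and 39 in WT ESCs, short of the threshold at an edgeR adjusted p of 0.0672, and is named because its profile over the libraries resembled that of the members. In EBs 22 neighbours were tested, and 4 rose and 3 fell, 7 of 22 against 55.7% of all genes tested. Hmgcs1, an enzyme of cholesterol synthesis, stood at 226 ± 2.32 CPM in KD EBs and 396 ± 4.59 CPM in WT EBs (SD, n = 3 each; edgeR adjusted p = 1.05e-19). Nim1k and Gm48342 fell at log2 fold changes of -1.39 (SE 0.26) and -1.79 (SE 0.50). Besides Zscan4-ps2, Gm5900 and Paip1 rose at 0.88 (SE 0.22) and 0.15 (SE 0.04), and the call of Paip1 was lost without WT EB replicate 2. A fit of all 12 libraries lost the calls of Gm48342, Gm5900 and Paip1.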

How the data were processed

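The authors deposited unnormalised counts for each gene, with ESC and EB libraries in separate tables. Per the submitters' processing notes, HISAT2 2.1.0, featureCounts 2.0.3, DESeq2 1.18.1 and mm10 were used. Per the file headers, the counts were made for paired reads with both ends mapped, on the Ensembl GRCm38 annotation, with no strand option named, so overlapping genes cannot be told apart.

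Per stage, KD was compared with WT by edgeR 4.0.16 (R 4.3.3; quasi-likelihood test, TMM scaling, filterByExpr at a minimum count of 10, Benjamini-Hochberg adjustment over all genes tested, threshold 0.05). EB minus ESC came from 1 fit of all 12 libraries. Alternatives included DESeq2 1.42.0, other scalings, no filter and leaving out each library. The fit was also run on simulated data, with results that are not reported here. Same-numbered replicates did not deviate together (correlations from -0.0264 to 0.0372), so the numbers were not taken as pairs.

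The members and gene lists were chosen with earlier results of these data known. Besides the members, genes were named where called, up to 6 per list and direction by smallest p (some are not reported here), or by likeness to the members (10). Zscan4-ps3, Arg2, Gm4340, Duxf3 and Gm21818 were named after their values were seen. SDs cover the spread between the libraries of a group. Each SE was derived from the log2 fold change and its edgeR F statistic, which uses a spread shared in part over genes.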

Additional observations from a re-analysis of the deposited data

Results flagged for a closer look

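For 14 genes the KD and WT libraries were separate in both stages but in opposite directions, a difference between stages that was not tested. They are 3 of 4 members tested in both stages and 11 of the other listed genes. Those 11 are 1 of 7 other 2-cell-like genes, 2 of 6 activators, 7 of 32 repressors and 1 of 11 telomere and recombination genes. The same pattern was found in 1224 of all 14670 genes tested in both stages (8.34%). The values below are the log2 fold change, KD over WT, in EBs minus that in ESCs. Among the members this was 5.00 for Zscan4a, 3.81 for Zscan4d and 3.91 for Gm21761, each higher in KD EBs and lower in KD ESCs. The ESC values of these members were in view when the genes were chosen, and Zscan4a and Zscan4d passed the EB filter through the KD libraries. The share of the members is therefore not compared with that of all genes.

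Calcoco2 at 2.77 and Dppa3 at 3.56 had the same order, as did the repressors Trim28 at 0.57, Ehmt2 at 0.44 and Ncl at 0.58. The order was the reverse, lower in KD EBs and higher in KD ESCs, for Nelfa at -0.63, Kdm1a at -0.49, Ehmt1 at -0.37, Dnmt1 at -0.45, Uhrf1 at -0.18 and Dmc1 at -1.78. None of the 11 genes outside the members passed the edgeR test in ESCs, and Uhrf1 did not pass it in EBs either (edgeR adjusted p = 0.230).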

How the results depend on the processing

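The log2 ratio, KD over WT, of the summed CPM stayed on its side of 0 when any 1 library was left out: from -3.16 to -2.45 for the 4 Zscan4 members in ESCs, from 0.96 to 1.39 for them in EBs, and from -3.05 to -2.86 for the 10 members in ESCs. Counts of calls in ESCs moved widely. All genes called in ESCs, 97 as reported, came to 36 with library size only, 1769 with no filter, 866 by DESeq2, 1999 with all 12 libraries in 1 fit, and 8 to 1557 with 1 library left out, the highest without WT ESC replicate 2. Genes called higher were 27.8% of those as reported, 39.0% with no filter, 48.5% with all 12 libraries, 40.1% without WT ESC replicate 2 and 12.5% without KD ESC replicate 3. Other 2-cell-like genes called in ESCs, 1 as reported, came to 7 with no filter, 3 by DESeq2, 2 with halved counts, 7 with all 12 libraries and 0 to 8 with 1 library left out. Regulators (activators, repressors and telomere genes) called in ESCs, 0 as reported, came to 10, 3 and 6 with no filter, by DESeq2 and with all 12 libraries, and 0 to 8 with 1 library left out, the 8 without WT ESC replicate 2. Neighbours called in ESCs, 1 as reported, came to 3 with no filter, 3 with all 12 libraries and 0 to 3 with 1 library left out. In EBs, members called, 2 as reported, came to 1 with no filter or by DESeq2 (Zscan4a), to 1 with all 12 libraries (Gm21761 in place of both), to 0 with halved counts, where neither Zscan4a nor Zscan4d passed the filter, and to 0 to 2 with 1 library left out. Other 2-cell-like genes called in EBs, 4 as reported, were 4 to 7 with 1 library left out, and neighbours, 7 as reported, came to 3 with all 12 libraries. The log2 fold change, EB over ESC, in KD cells turned for Usp17la to -0.56 without KD ESC replicate 2 and to -0.54 without KD EB replicate 2 (from -0.56 to 0.86 with 1 library left out), and for Tcstv3 to -0.55 and -0.29 without KD ESC replicate 2 or 3, and to -0.29 without KD EB replicate 3 (from -0.55 to 1.68). With library size only, the median over all genes in ESCs was 0.12, against 0.01 as reported. The cause of these shifts was not tested. Counts of a few reads limit each member on its own. DESeq2 and the replicate block were not run for summed ratios.

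With the replicate number as a block, 266 genes were called in ESCs and 1 member (Zscan4a) in EBs, where the edgeR adjusted p of Zscan4d was 0.0668. The numbers did not pair the libraries, and the cause of these changes was not tested.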

Other observations

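Genes outside the 10 were ranked by how closely their log2(CPM + 0.1) followed the mean scaled profile of the 6 members tested over all 12 libraries, among 18969 genes. The 10 most alike had Pearson correlations from 0.902 to 0.948, given as a description since the points share libraries and groups. AA623943 led at 0.948, with 0, 0 and 0 counts in KD ESCs, 38, 26 and 48 in WT ESCs, none in KD EBs, and 0, 0 and 1 in WT EBs. It was thus seen almost only in WT ESCs, as was Gm13551 at 0.907.

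Gm4340 followed at 0.938 and Gm21818 at 0.911, the last a neighbour of members on chromosome 13. Pax5, a transcription factor of B cells, and Rhox1, a homeobox gene of the X chromosome, stood at 0.910 and 0.909. Pax5 averaged 0.102 ± 0.0889 CPM in KD ESCs, 0.589 ± 0.163 in WT ESCs, 0.120 ± 0.0471 in KD EBs and 0.0527 ± 0.0521 in WT EBs (SD, n = 3 each). Tmem117 at 0.934, Smoc1 at 0.923 and Tunar at 0.902 were also highest in WT ESCs, from higher levels. Tunar, annotated as protein-coding, averaged 6.80 ± 0.594 CPM in KD ESCs, 11.8 ± 1.27 in WT ESCs, 6.05 ± 1.34 in KD EBs and 5.52 ± 0.256 in WT EBs.

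CT010467.1, annotated as ribosomal RNA, stood among them at 0.921. It had 2457, 1940 and 2148 counts in KD ESCs, 10798, 11799 and 7566 in WT ESCs, 4002, 3499 and 2996 in KD EBs, and 3036, 3236 and 3338 in WT EBs. Ribosomal RNA left in the libraries thus moved with the members in ESCs, and its part in their values was not tested.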
